A study of Mus musculus with 64 samples.

Results

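The genes described here are 10 mRNAs of the canonical Wnt pathway: the feedback inhibitors Axin2, Nkd1 and Notum, the DNA-binding factors Lef1 and Tcf7, the transcription factors Sp5, T (Brachyury) and Mixl1, and the caudal homeobox genes Cdx1 and Cdx2. They are 10 of the 55335 genes in the count table. They were listed by name, because some of them stood out in earlier results of these same data: Cdx1 and Axin2 after IAA in wild-type (WT) cells, and Cdx2 after IAA in the RPB12 line. In those 2 comparisons the members' values are therefore a description, without a test. All 10 passed the filter on low counts in the 12 h data set (17928 genes tested), and 8 passed it in the 0 h and 1 h set (15658 genes), where T and Cdx2 were too low.

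In the canonical Wnt pathway a destruction complex built on Axin and APC lets the kinase GSK3 mark β-catenin for degradation. A Wnt ligand, or a GSK3 inhibitor such as CHIR99021, stops this, and β-catenin enters the nucleus and activates genes together with TCF and LEF factors. Axin2, Nkd1, Notum and Sp5 are target genes that act back on the pathway, while T, Mixl1, Cdx1 and Cdx2 are switched on by Wnt signals in the primitive streak and posterior embryo. Mouse embryonic stem cells are often grown with a GSK3 inhibitor, which keeps them pluripotent.

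All cells were V6.5 mouse embryonic stem cells, either WT or from 1 of 12 lines, RPB1 to RPB12, each with a degron on the RNA polymerase II (Pol II) subunit it is named after. A degron is a tag through which the plant protein OsTir1 directs a protein to destruction once indole-3-acetic acid (IAA, an auxin) is present. All groups, of both the 12 h set and the 0 h and 1 h set, shared a medium with 3 µM CHIR99021 and 0.5 µM PD0325901, a MEK inhibitor, and 12 h of doxycycline, 2 µg/ml per the labels, to induce OsTir1. In the 12 h set each of the 13 lines was left untreated or given 500 µM IAA for 12 h, with 2 libraries a group (52 libraries, 26 groups). RPB1, RPB3 and RPB6 were also sequenced at 0 h and after 1 h of 500 µM IAA (12 libraries, 6 groups). The sources used here do not give whether the lines are single clones or whether WT cells carried OsTir1. Nothing in the labels states that a group's 2 libraries were grown apart. A p-value here therefore reflects only the spread between libraries of the same group, which may be technical. In the main fit that spread was pooled over all groups of a set, although it was uneven. By chi-square per degree of freedom it was largest, within the 12 h set, in untreated RPB7, RPB5 and RPB11 and in RPB3 after IAA. Calls that use these groups may thus rest on a variance below their own. The amount of each Pol II subunit protein was not measured in these files.

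The 12 h libraries held 3399838 to 7164928 counts each and those of the other set 8598431 to 13281252. Levels are given as CPM, the share of a library's counts, scaled by TMM, a method that takes most genes as unchanged, and changes as log2 fold changes with their SE after ±. A called gene, one that rose or fell, had an adjusted p under 0.05 by edgeR's quasi-likelihood test (Benjamini-Hochberg, over all genes tested). Counts give shares of a library, so fewer cells of a type and less RNA per cell cannot be told apart. Scaling shifted the middle of the whole distribution after 12 h of IAA. The median over all genes was -0.19 (log2) in RPB2 with TMM, -1.03 with total counts and -2.32 with mitochondrial mRNAs. For RPB6 the 3 values were -0.13, -0.75 and -2.08, and for RPB8 0.04, -0.11 and -1.43. It moved less in RPB1 (0.09, 0.28 and -0.47), RPB5 (0.08, 0.16 and -0.46) and RPB3 (0.06, 0.24 and 0.80), and with mitochondrial mRNAs it was -0.38 in RPB7, -0.24 in RPB10, -0.14 in RPB9, 0.12 in RPB4, 0.11 in RPB11 and -0.10 in WT. Changes below are on the TMM scale. Of the mitochondrial mRNAs in RPB3, IAA replicate 1 held 0.534% of its counts and replicate 2 held 1.72%, so that scaling rests on 1 library there. The summed level of 8 embryonic stem cell markers (Pou5f1, Nanog, Sox2 and others) was 4560 to 6286 CPM over the 13 untreated groups and 3153 (RPB1) to 9365 (RPB2) CPM after 12 h of IAA.

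Promoter sequence was read for 7 of the 10 genes from RefSeq tables on GRCm38.p6, 250 bases before and 50 bases after each start. The short core bound by TCF and LEF factors, CTTTGAT or CTTTGAA on either strand, occurred in the 300-base promoters of 2 of these 7 genes, Sp5 and T, against 9.88% of the 27025 genes in the table. By sequence it occurred in 8.65% of all 32851 such promoters. The RefSeq starts need not be those of the gene models used elsewhere here. The Nkd1 window (chr8:88527383-88527682) lies inside its gene model, which starts at 88521354. In the Lef1 window at chr3:131110047-131110346 all 250 bases before the start overlap annotated exons. The 250 bases before the start are shown for Sp5 and Axin2, the members with the largest falls described below, and for T, with the match in capitals. Sp5 held CTTTGAT on the gene's strand, beginning at position -104 from the start (chr2:70474673-70474922, + strand). T held CTTTGAA on the opposite strand, read here as its complement, beginning at position -235 (chr17:8434173-8434422, + strand). Axin2 held neither form in this window (chr11:108920099-108920348, + strand).
Sp5: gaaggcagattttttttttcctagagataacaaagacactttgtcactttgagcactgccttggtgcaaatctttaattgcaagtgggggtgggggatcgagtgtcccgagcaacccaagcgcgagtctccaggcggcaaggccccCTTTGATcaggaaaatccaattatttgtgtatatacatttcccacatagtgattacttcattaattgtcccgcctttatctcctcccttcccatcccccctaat
Axin2: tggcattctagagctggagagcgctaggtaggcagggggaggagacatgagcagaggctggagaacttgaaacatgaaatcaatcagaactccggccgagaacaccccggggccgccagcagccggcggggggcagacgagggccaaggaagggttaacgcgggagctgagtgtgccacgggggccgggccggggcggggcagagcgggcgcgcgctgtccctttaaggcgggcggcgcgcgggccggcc
T: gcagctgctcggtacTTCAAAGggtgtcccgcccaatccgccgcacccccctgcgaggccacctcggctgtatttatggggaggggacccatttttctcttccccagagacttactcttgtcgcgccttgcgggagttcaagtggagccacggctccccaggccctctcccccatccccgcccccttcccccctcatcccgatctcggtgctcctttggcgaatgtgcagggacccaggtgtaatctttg
A match is a description of these letters and not a mapped binding site, and a window without one says nothing of binding elsewhere.

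After 12 h of IAA, with TMM, Axin2 and Sp5 fell in RPB2 and RPB6 and in no other tested line, and both rose in RPB3, RPB5, RPB8, RPB9 and RPB10. When libraries were scaled to mitochondrial mRNAs, Axin2 in RPB8 was instead called lower (-0.88), where the median of all genes also lay below 0. Sp5 also rose in RPB1 and Axin2 in RPB7. Over the 11 lines other than WT and RPB12, Axin2 rose in 6 lines, fell in 2 and did not pass the test in 3, and the counts for Sp5 were the same (6, 2 and 3). Cdx1 was called higher in 5 of these 11 lines with 0 falls, of which RPB2 turned negative with total counts and RPB2 and RPB6 with mitochondrial mRNAs. Cdx2 rose in 5 with 0 falls, and Tcf7 fell in 6 with 0 rises, of which RPB3 turned positive with mitochondrial mRNAs. Notum was called higher in 3 and lower in 3, and 4 of these 6 signs turned with mitochondrial mRNAs (RPB2, RPB3, RPB6 and RPB8). The remaining genes rarely passed the test: Lef1 rose in 2 lines, and Nkd1, T and Mixl1 in 1 each. The heat map of log2 fold changes shows these calls by line.

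**Figure D1:**
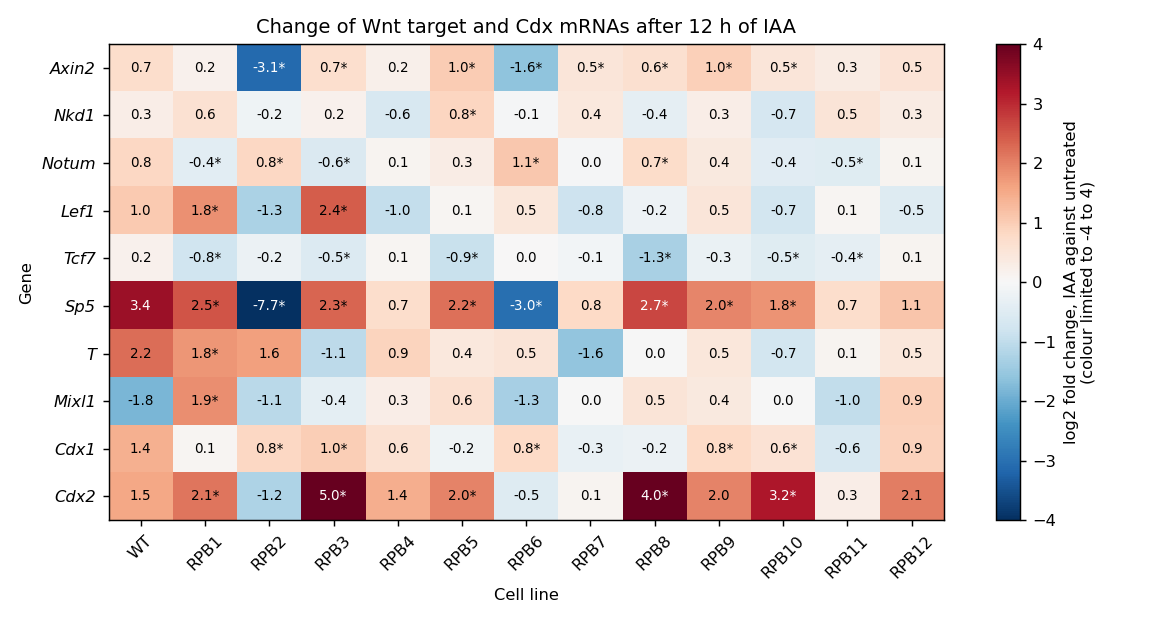
Log2 fold change of each gene (rows) after 12 h of IAA against untreated cells in each line (columns), on the TMM scale, 2 libraries a group. Asterisks mark calls (adjusted p under 0.05, edgeR), which are left out for WT and RPB12, where members were chosen on these values. The Axin2 and Sp5 rows are below 0 only in RPB2 and RPB6, with TMM (Axin2 in RPB1 and RPB8 is also below 0 with mitochondrial mRNAs), and Sp5 in RPB2, at 0 counts after IAA, is a fitted value and no bound.

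Because so many genes moved, the members' counts need the background of all genes. In RPB1 7 of 10 members were called, against 66.3% of all genes tested. It was 5 of 10 in RPB5 (59.1% of all genes) and 5 of 10 in RPB8 (61.7%), and 4 of 10 in RPB2 (61.9%) and in RPB6 (60.7%). In RPB3 it was 7 of 10 (47.7%), in RPB10 5 of 10 (39.4%), in RPB7 1 of 10 (41.3%), in RPB9 3 of 10 (34.8%) and in RPB11 2 of 10 (23.7%). In RPB4 it was 0 of 10 against 2.08% of all genes, by the edgeR test, where 3 members (Sp5, Cdx1 and Cdx2) had an unadjusted p under 0.05 and DESeq2 also called 0. These shares lie near the background in most lines, so the counts are no result about these 10 genes as a group. In the comparisons that chose the members, 4 of 10 were past the same threshold in WT (1.65% of all genes) and 4 of 10 in RPB12 (4.79%). The choice of members set these counts, so they are given for completeness and nothing is read from them. The median log2 fold change of the 10 was 1.19 in RPB1, -0.64 in RPB2, -0.02 in RPB6, 0.53 in RPB5 and 0.24 in RPB8. The median of all genes on the same scale was between -0.19 and 0.09 in these lines.

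Axin2 encodes the scaffold of the destruction complex that Wnt signals induce, and it is a widely used readout of β-catenin activity (ENSMUSG00000000142, mm10 chr11:108920349-108950783, + strand). Its exons overlap those of the antisense gene Gm11670 over 209 bases. Gm11670 took 1394 counts and Axin2 14184 over all libraries used, and without a known strand setting reads of that stretch cannot be told apart. In RPB2 the untreated libraries held 42.7 and 39.3 CPM and the IAA libraries 4.76 and 4.66 CPM. In RPB6 they held 45.3 and 46.1 CPM untreated and 13.6 and 16.5 CPM after IAA. Both lines started above the median untreated library of the set (34.4 CPM) and ended below every untreated library, whose lowest was 22.1 CPM. The fall was -3.11 ± 0.23 in RPB2 (adjusted p = 1.37e-16, edgeR) and -1.60 ± 0.16 in RPB6 (adjusted p = 1.86e-12, edgeR). With 1 library left out at a time it ran from -3.17 to -3.06 and from -1.80 to -1.52, and it was larger with total counts (-3.96 and -2.23) and with mitochondrial mRNAs (-5.31 and -3.56).

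With TMM the largest Axin2 rise was in RPB5, from 27.7 and 35.1 CPM untreated to 62.5 and 65.0 CPM with IAA (1.01 ± 0.12, adjusted p = 1.01e-09, edgeR). In RPB9 it went from 22.9 and 23.2 CPM to 43.9 and 45.4 CPM (0.95 ± 0.13). In RPB8 it went from 35.3 and 37.2 CPM to 56.3 and 56.0 CPM (0.63 ± 0.13), a rise that turned to -0.88, called lower, with mitochondrial mRNAs. The groups did not overlap in any of these 3 lines. With 2 libraries a group that is common even for unchanged genes, and its share over all genes was not counted. Here and below it is therefore a description and adds nothing to the test. RPB3 gave 23.3 and 24.8 CPM untreated and 41.2 and 35.6 CPM after IAA (0.67 ± 0.13, and 1.52 with mitochondrial mRNAs, then above RPB5). RPB7 gave 33.7 and 26.5 against 44.0 and 41.0 CPM (0.49 ± 0.12), and RPB10 26.9 and 30.2 against 37.6 and 42.8 CPM (0.49 ± 0.12). The calls in RPB5, RPB7, RPB9 and RPB10 were lost with mitochondrial mRNAs, where the changes stayed positive, at 0.46, 0.09, 0.81 and 0.24. Axin2 did not pass the test in RPB1 (36.6 and 43.2 to 42.6 and 46.9 CPM, 0.17 ± 0.12), RPB4 (0.20 ± 0.12) or RPB11 (0.32 ± 0.12). Without the degron, WT went from 22.1 and 24.5 CPM to 36.9 and 39.2 CPM (0.71 ± 0.13, not tested here). RPB12 had the highest levels of all, 67.0 and 68.9 CPM untreated and 91.5 and 105 CPM after IAA (0.53 ± 0.11, not tested here). The WT values helped to choose Axin2, so differences of its responses to IAA in the lines from the WT response are not given.

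Sp5 encodes a zinc-finger repressor that is a direct Wnt target and limits the response (ENSMUSG00000075304, mm10 chr2:70474923-70477729, + strand). In RPB2 the untreated libraries held 4.70 and 4.73 CPM (56 counts together), and both IAA libraries held 0 counts. Against a floor of 3 counts over the group, Sp5 was at least 6.68-fold lower with IAA. In RPB6 it went from 4.48 and 6.59 CPM to 0.662 and 0.675 CPM (64 counts against 4), a change of -3.01 ± 0.52 (adjusted p = 1.71e-06, edgeR). In both lines each IAA library lay below each untreated one, and the sign was the same with all 4 scalings.

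In RPB1 Sp5 rose from 5.01 and 6.30 CPM to 30.6 and 34.6 CPM (2.53 ± 0.21, adjusted p = 3.02e-14, edgeR). In RPB8 it rose from 1.75 and 1.99 CPM to 10.3 and 13.7 CPM (2.66 ± 0.32). In RPB5 it rose from 3.08 and 3.07 CPM to 17.1 and 11.6 CPM (2.22 ± 0.26). These 3 rises were called with every scaling, with mitochondrial values of 1.96, 1.16 and 1.68, and without any 1 library. Axin2 and Sp5 thus differed in RPB1, where only Sp5 was called. RPB3 (1.59 and 0.685 to 7.18 and 4.20 CPM, 2.31 ± 0.37), RPB9 (1.16 and 1.04 to 4.55 and 4.17 CPM, 1.96 ± 0.39) and RPB10 (1.41 and 0.746 to 4.45 and 3.02 CPM, 1.79 ± 0.41) also rose, in each case with no overlap of the groups. RPB4 (0.69 ± 0.29), RPB7 (3 against 5 counts, a ratio of 1.81 with a 95% counting interval of 0.351 to 11.6) and RPB11 (0.69 ± 0.52) did not pass the test. In WT, Sp5 went from 0.177 and 0.178 CPM to 2.19 and 2.06 CPM (2 against 21 counts, not tested here), a ratio of 12.0 with a 95% counting interval of 2.94 to 106. In RPB12 it went from 16.9 and 19.5 CPM to 39.7 and 39.7 CPM (1.12 ± 0.17, not tested here). Per kilobase of exon, the median untreated library held 0.889 CPM of Sp5, 6.25 of Axin2 and 29.5 of Tcf7, with lowest and highest single libraries of 0.174 and 19.5 CPM for Sp5.

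**Figure D2:**
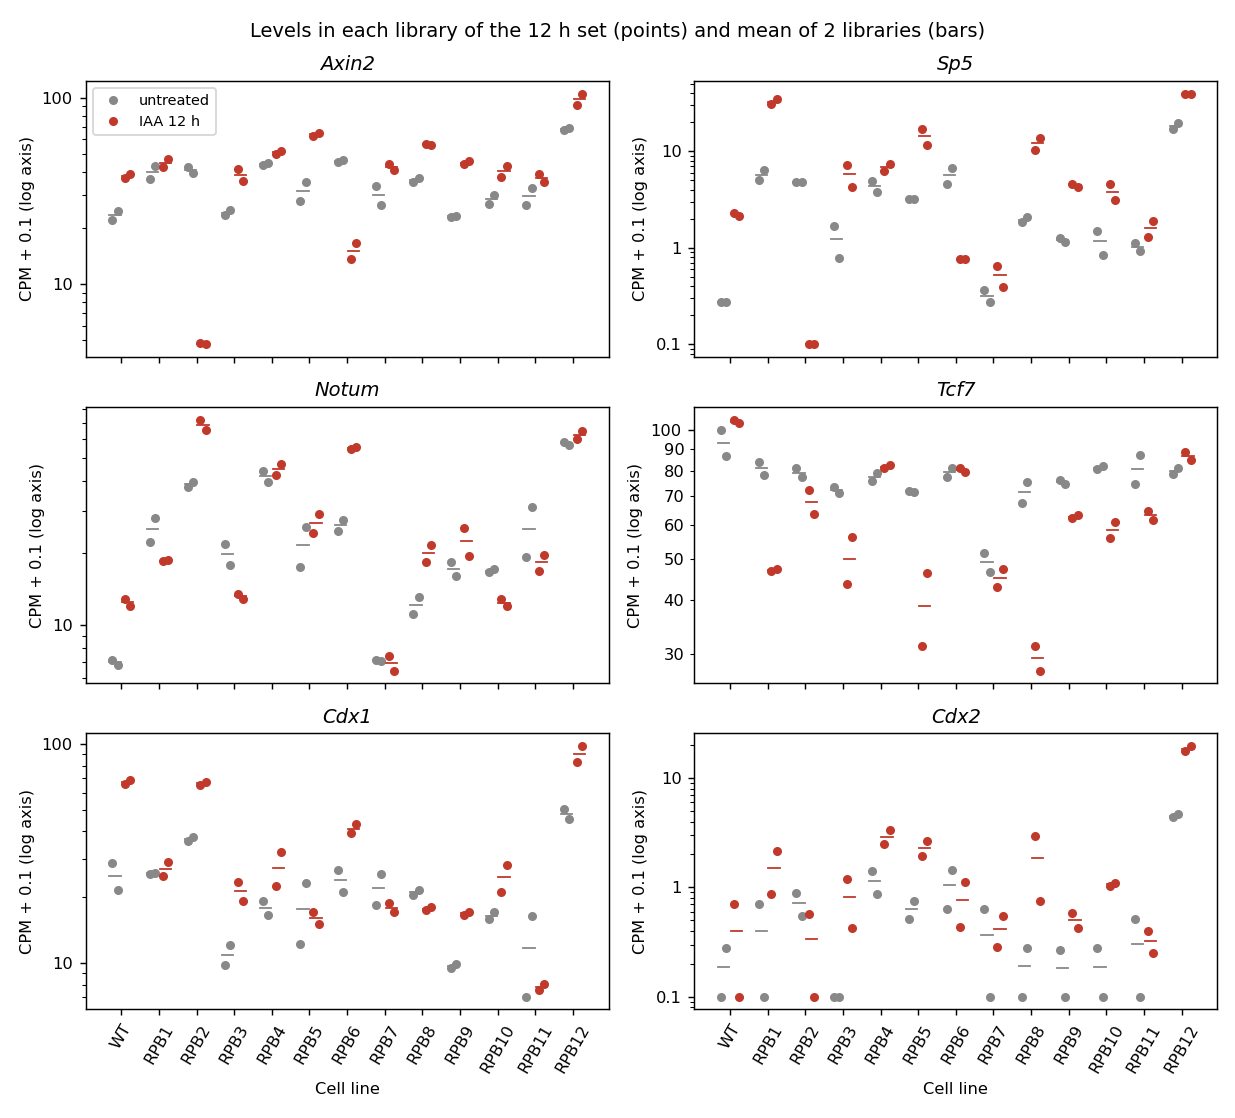
Level of 6 genes in each library of the 12 h set (points, CPM + 0.1 on a log axis) in 13 lines, untreated in grey and after 12 h of IAA in red, with short bars at the mean of 2 libraries. Axin2 and Sp5 drop in RPB2 and RPB6 and rise in most other lines, and RPB12 lies highest for Axin2, Sp5 and Cdx2 in both conditions; points at 0.1 are libraries with 0 counts, and the lower CPM of Sp5 in RPB2 with IAA is such a pair.

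Notum encodes a secreted enzyme that removes the lipid of Wnt ligands (ENSMUSG00000042988, mm10 chr11:120653788-120661175, - strand). Its exons overlap those of the antisense genes Notumos over 708 bases and Myadml2os over 210 bases. The sources used here do not give the strand setting of the counting, so reads of these genes cannot be told apart, and Notum values are uncertain (Notumos took 2754 counts and Notum 7561 over all libraries used). In RPB6 Notum went from 24.7 and 27.4 CPM to 54.6 and 55.4 CPM (1.08 ± 0.16). In RPB2 it went from 37.8 and 39.8 CPM to 72.3 and 65.7 CPM (0.83 ± 0.15), and in RPB8 from a mean of 12.01 ± 1.40 CPM (SD, n = 2) to 18.3 and 21.5 CPM (0.72 ± 0.21, not called without IAA replicate 2). The groups did not overlap in these 3 lines, in which Notum was called higher on the TMM scale. With mitochondrial mRNAs the change turned negative and was called lower in all 3, at -0.89, -1.38 and -0.78. With total counts it was 0.45 in RPB6, -0.03 in RPB2 and 0.56 in RPB8. Notum was called lower in RPB1 (22.2 and 27.9 to 18.4 and 18.7 CPM, -0.43 ± 0.17), RPB3 (-0.59 ± 0.18) and RPB11 (-0.49 ± 0.17). In RPB1 the call was lost without untreated replicate 2 or without either IAA library, and also with RLE size factors (-0.28, adjusted p = 0.146, edgeR), total counts (-0.24, adjusted p = 0.213, edgeR) and DESeq2 (adjusted p = 0.239). In RPB3 it was lost without untreated replicate 1 and turned to 0.16 with mitochondrial mRNAs. In RPB3 and RPB11 it was also lost with total counts. In RPB11 it was lost without untreated replicate 2 (-0.08) or IAA replicate 1. WT went from 7.08 and 6.75 CPM, the lowest untreated group, to 12.8 and 12.0 CPM (0.84 ± 0.23, not tested here).

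Nkd1, which encodes an inhibitor that binds Dishevelled, stayed low, at 0.817 to 7.11 CPM over the 52 libraries of the 12 h set. It was called only in RPB5, where it went from 1.85 and 2.59 CPM to 3.66 and 4.50 CPM (0.84 ± 0.36, adjusted p = 0.0392, edgeR). That call was lost without untreated replicate 1 or either IAA library. It was also lost with mitochondrial mRNAs (0.31), with no filter (adjusted p = 0.148, edgeR), with DESeq2 (adjusted p = 0.102) and with the 4 libraries of the comparison alone (adjusted p = 0.0582, edgeR). In the other 10 tested lines its change ran from -0.67 (RPB10) to 0.60 (RPB1).

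Tcf7 encodes TCF1, a factor that recruits β-catenin to DNA, and it was the most abundant of the 10 per kilobase in the median untreated library (ENSMUSG00000000782, mm10 chr11:52252371-52283014, - strand). In RPB8 it fell from 67.5 and 75.5 CPM to 31.2 and 27.3 CPM (-1.28 ± 0.13, adjusted p = 1.69e-11, edgeR). In RPB5 it fell from 71.9 and 71.5 CPM to 31.1 and 46.3 CPM (-0.89 ± 0.12), and in RPB1 from 84.1 and 78.3 CPM to 46.7 and 47.1 CPM (-0.79 ± 0.12). The IAA libraries lay below the untreated ones in all 3, and these calls held with all 4 scalings. Smaller falls were called in RPB3 (73.5 and 71.1 to 43.6 and 56.1 CPM, -0.54 ± 0.11), which turned to 0.17 with mitochondrial mRNAs, and in RPB10 (80.8 and 82.0 to 55.8 and 60.8 CPM, -0.48 ± 0.11). RPB11 was called (-0.36 ± 0.11) but not without untreated replicate 2 or IAA replicate 2, nor with total counts or mitochondrial mRNAs. In RPB2 Tcf7 went from 81.3 and 77.3 CPM to 72.3 and 63.4 CPM (-0.22 ± 0.12, not called). In RPB6 it went from 77.4 and 81.3 CPM to 81.5 and 79.7 CPM (0.02 ± 0.12, not called). Both were called lower with total counts (-1.08 and -0.60) and with mitochondrial mRNAs (-2.44 and -1.94). The order of RPB2 and RPB6 against RPB1, RPB5 and RPB8 was thus opposite to that of Axin2 on the TMM scale. Lef1, the other TCF/LEF factor, was at 0 to 11.4 CPM. It was called higher in RPB1 (1.20 and 0.420 to 2.91 and 2.99 CPM, 8 against 31 counts, 1.82 ± 0.64), except without untreated replicate 2 and with mitochondrial mRNAs. It was also called higher in RPB3 (2 against 13 counts, a ratio of 5.93 with a counting interval of 1.34 to 54.1), a call lost without any 1 of its 4 libraries, and with DESeq2. Exons of Lef1 overlap those of the antisense gene Gm43352 over 1208 bases.

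T and Mixl1, transcription factor genes of the primitive streak, were near the detection limit, with at most 22 counts of T and 18 of Mixl1 in any library of the 12 h set. Both were called only in RPB1. T went from 0.801 and 0.210 CPM to 1.94 and 1.68 CPM there (5 against 19 counts, 1.77 ± 0.66), a call lost without untreated replicate 2 or IAA replicate 1, and with DESeq2. Mixl1 went from 1.00 and 0.630 CPM to 3.49 and 2.62 CPM (8 against 32 counts, 1.86 ± 0.54). That call was kept without any 1 library, and the groups did not overlap for either gene. With mitochondrial mRNAs both stayed positive but were not called (1.22 and 1.30). The summed level of 9 other mesoderm and primitive streak markers was 25.8 CPM in RPB1 after IAA, the highest of the 13 IAA groups, whose lowest was 3.31 CPM in RPB2, against 11.4 to 25.4 CPM over the 13 untreated groups. The part of such cells in the T and Mixl1 values was not tested.

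Cdx1 encodes a caudal homeobox factor of the posterior embryo and the gut (ENSMUSG00000024619, chromosome 18). In WT it went from 28.5 and 21.5 CPM to 65.8 and 68.8 CPM (1.43 ± 0.18, not tested here). In RPB12 it went from 50.4 and 45.7 CPM to 82.7 and 98.2 CPM (0.92 ± 0.17, not tested here). Cdx1 was chosen for its rise in WT, so its responses to IAA in the lines are not compared with the WT response. Among the 11 tested lines Cdx1 rose in RPB3 (9.72 and 12.0 to 23.4 and 19.2 CPM, 0.97 ± 0.23) and in RPB9 (9.45 and 9.89 to 16.6 and 17.0 CPM, 0.80 ± 0.25). It also rose in RPB10 (15.9 and 17.0 to 21.1 and 28.0 CPM, 0.58 ± 0.21). The RPB9 call was lost without untreated replicate 1 or IAA replicate 2, and the RPB10 call without either untreated library or IAA replicate 2, and both with mitochondrial mRNAs. In RPB2 Cdx1 went from 36.0 and 37.7 CPM to 65.2 and 67.1 CPM (0.84 ± 0.19), and in RPB6 from 26.5 and 21.1 to 39.1 and 43.2 CPM (0.79 ± 0.21). Both were called higher with TMM and with RLE size factors, but total counts gave -0.01 and 0.16, and mitochondrial mRNAs -1.37 and -1.17, both called lower. In RPB1 (0.08 ± 0.21), RPB5 (-0.17 ± 0.24), RPB7 (-0.28 ± 0.21) and RPB8 (-0.25 ± 0.24) it did not pass the test. Nor did Cdx1 pass in RPB4 or in RPB11, whose change of -0.64 was the lowest of the 13 lines.

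Cdx2, the caudal gene of the trophectoderm and posterior embryo, was at most 4.57 CPM in any untreated library, and that library was of RPB12 (ENSMUSG00000029646, mm10 chr5:147300805-147307270, - strand). In RPB12 it went from 4.27 and 4.57 CPM to 17.4 and 19.6 CPM (46 against 211 counts, 2.06 ± 0.31, not tested here). In RPB8 it went from 0 and 0.181 CPM to 2.86 and 0.651 CPM (1 against 12 counts, a ratio of 20.6 with a counting interval of 3.04 to 879), called except without IAA replicate 1. In RPB5 it went from 0.411 and 0.647 CPM to 1.83 and 2.57 CPM (6 against 21 counts, 1.97 ± 0.73), called except without untreated replicate 1 or IAA replicate 2. Cdx2 was chosen for its level in RPB12 after IAA, so the place of RPB12 is a description. The rises in the other lines rested on few reads. RPB3 (0 against 9 counts), RPB10 (1 against 11) and RPB1 (3 against 15) were also called. In RPB3 the call needed IAA replicate 1 and both untreated libraries, in RPB10 untreated replicate 2 and both IAA libraries, and in RPB1 replicate 2 of each group. DESeq2 called neither RPB1 nor RPB10, and with mitochondrial mRNAs RPB1, RPB5 and RPB10 were not called. In RPB2 (7 against 1 counts) and RPB6 (11 against 4) it was not called. Of 8 trophectoderm markers, the summed level was 84.1 to 187 CPM over the 13 IAA groups and 131 to 202 CPM untreated. Over the untreated groups the median of Elf5, a gene of that lineage, was 0 CPM, and those of Hand1, Krt7 and Gata3 were 0.175, 0.180 and 1.67 CPM. Tead4 (62.5 CPM), Tfap2c (52.7), Krt8 (40.6) and Krt18 (13.2) were present in the same groups. The part of such cells in the Cdx2 values was not tested.

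The difference between lines was tested in a contrast chosen after seeing the data. It was the mean response of RPB2 and RPB6 minus the mean response of RPB1, RPB5 and RPB8, in the same fit. A difference of means does not require opposite signs. Axin2 was not called in RPB1 with TMM, and with mitochondrial mRNAs it was below 0 in RPB1 and RPB8 (-0.88 in RPB8). Of the 10 members 7 were called, against 68.0% of all genes, whose median difference was -0.43. Axin2 differed by -2.96 ± 0.16 (adjusted p = 1.1e-21, edgeR), and it ran from -4.16 to -2.90 over the other scalings and fits. Sp5 differed with an adjusted p of 1.73e-17 (edgeR), with no fold given because RPB2 had 0 counts. Mixl1 (-2.20 ± 0.77) and Cdx2 (-3.59 ± 1.07) were also lower in RPB2 and RPB6, the former not called without RPB6 untreated replicate 2. Notum (0.76 ± 0.15), Tcf7 (0.89 ± 0.11) and Cdx1 (0.93 ± 0.19) were higher on the TMM scale. With total counts these 3 were -0.02, 0.11 and 0.15, and with mitochondrial mRNAs -0.45, -0.33 and -0.28, none of them called. The plot of fold changes by scaling shows both patterns.

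**Figure D3:**
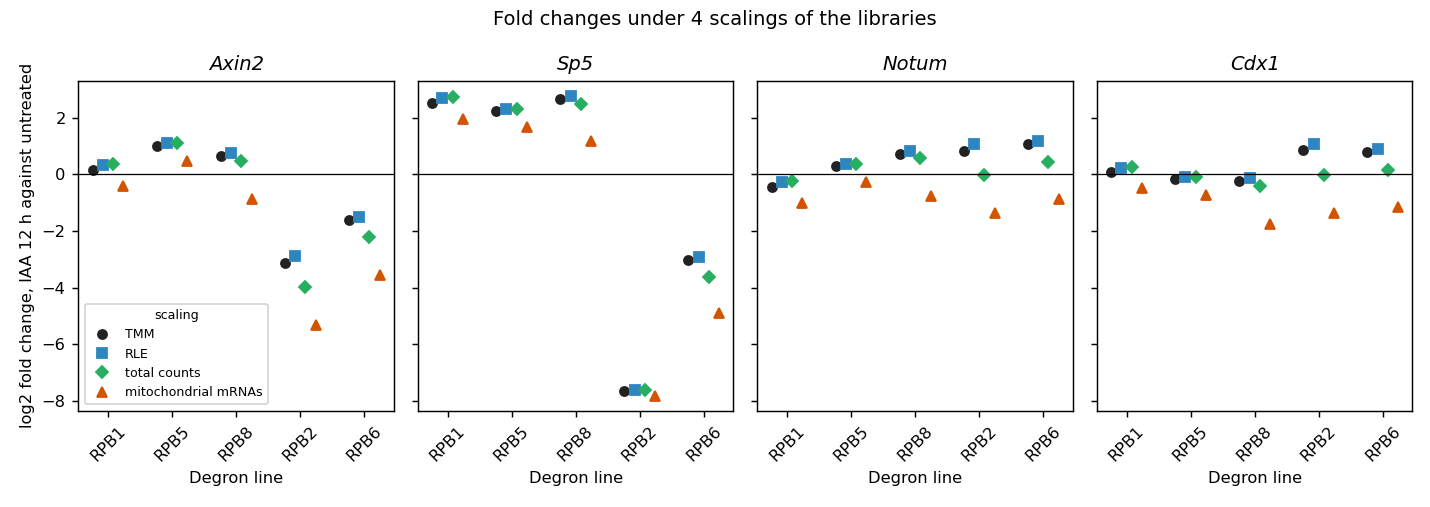
Log2 fold change after 12 h of IAA in 5 degron lines for Axin2, Sp5, Notum and Cdx1, with 4 scalings of the libraries (TMM, RLE, total counts, mitochondrial mRNAs). Axin2 and Sp5 lie below 0 in RPB2 and RPB6 with all 4, whereas Notum and Cdx1 in these lines lie above 0 with TMM and below 0 with mitochondrial mRNAs; Sp5 in RPB2 is a fitted value at 0 counts.

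Other parts of the pathway were counted from 5 lists, with some of the most often called genes named. Over all genes tested, 27.9% rose and 34.0% fell in RPB2, 27.3% and 33.4% in RPB6, 35.8% and 30.5% in RPB1, 31.5% and 30.2% in RPB8, and 31.0% and 28.1% in RPB5. The counts of each list stand beside these shares, and a count near them is no result about that list. In the list of β-catenin and its destruction complex, 15 of 18 tested genes fell in RPB2, 15 in RPB6, 15 in RPB1, 13 in RPB8 and 8 in RPB5, and 1, 1, 0, 1 and 1 rose. In RPB5 9 of 18 were thus called, a smaller share than the 59.1% of all genes. The median of the list was -0.71, -1.07, -0.48, -0.60 and -0.11 in these lines in turn. With mitochondrial mRNAs 18 of 18 fell in RPB2, RPB6 and RPB8, and in RPB3, where 2 rose and 1 fell with TMM, 15 rose. With that scaling the median of all genes also lay well below 0 in RPB2, RPB6 and RPB8 and above 0 in RPB3. These counts are therefore no result about the list. Axin1, the constitutive scaffold, fell in RPB2 (-3.12 ± 0.17), RPB6 (-2.19 ± 0.13) and RPB8 (-1.23 ± 0.13) and changed by 0.02 ± 0.10 in RPB1 and 0.04 ± 0.10 in RPB5. Apc, the other scaffold, fell by 2.65 on the log2 scale in RPB2, by 2.55 in RPB6, by 1.91 in RPB8, by 0.98 in RPB1 and by 0.89 in RPB5. Csnk1a1, the kinase that primes β-catenin for GSK3, was called lower in 11 of the 16 treatment comparisons, among them RPB8 (-1.93 ± 0.08), and of these RPB3 turned to 0.33 with mitochondrial mRNAs. Ctnnb1, which encodes β-catenin, was called higher in RPB2 (1.19 ± 0.07) and RPB6 (1.06 ± 0.07), where Axin2 fell, but with mitochondrial mRNAs it was -1.02 and -0.90. Gsk3b fell in RPB2 (-0.66 ± 0.16) and RPB6 (-1.20 ± 0.15) and Gsk3a in both (-0.59 ± 0.12 and -0.40 ± 0.12).

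Among 20 other genes known as β-catenin targets, 1 rose and 12 fell in RPB2 and 2 rose and 13 fell in RPB6, while 11 rose and 4 fell in RPB8, 8 and 3 in RPB1 and 6 and 4 in RPB5. Either way 13 were called in RPB2, near the 61.9% of all genes, and 11 in RPB1 and 10 in RPB5, below the 66.3% and 59.1% there. The fitted median of the list was -2.71 in RPB2 (-1.74 with genes at 0 counts placed at the floor) and -1.73 in RPB6, and 0.97 in RPB8, 0.35 in RPB1 and 0.41 in RPB5. With mitochondrial mRNAs 0 rose and 8 fell in RPB8, 4 rose and 4 fell in RPB1, and 1 rose and 4 fell in RPB5. The median of all genes also lay below 0 in these lines with that scaling. Ephb3, an ephrin receptor gene, fell in RPB2 (-3.30 ± 0.30) and RPB6 (-2.53 ± 0.23) and rose in RPB5 (1.07 ± 0.14) and RPB8 (1.11 ± 0.15), the last turning to -0.40 with mitochondrial mRNAs. Gbx2, a homeobox gene, fell in RPB2 (-2.12 ± 0.25) and RPB6 (-1.62 ± 0.21) and rose in RPB1 (1.37 ± 0.14) and RPB5 (1.40 ± 0.15). Ccnd1, which encodes cyclin D1, went the other way, higher in RPB2 (1.36 ± 0.08) and RPB6 (1.20 ± 0.08) with TMM and lower with mitochondrial mRNAs (-0.86 and -0.76), and it fell in RPB1 (-0.82 ± 0.08). Tdgf1, the co-receptor gene of Nodal, was called lower in 12 of the 16 comparisons, of which RPB3 turned to 0.03 with mitochondrial mRNAs. These falls included WT, without a degron (-0.40, not called with mitochondrial mRNAs).

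Of 27 tested receptors and extracellular regulators, 3 rose and 15 fell in RPB2, 3 and 16 in RPB6, 16 and 7 in RPB1 and 15 and 5 in RPB8. The 18 called either way in RPB2 lie near the 61.9% of all genes. With mitochondrial mRNAs 3 rose and 15 fell in RPB8, and 7 rose and 7 fell in RPB1, where the medians of all genes also lay below 0. The Wnt receptor gene Fzd10 was called in 13 of the 16 comparisons, higher in 10 and lower in 3. It fell in RPB2 (-2.97 ± 0.24) and RPB6 (-2.84 ± 0.21), and it rose in RPB5 (1.11 ± 0.14), RPB8 and RPB10 (1.43 ± 0.13), with RPB8 at -0.33 with mitochondrial mRNAs. Fzd10 was also called higher in WT, without a degron (0.67), and in RPB12 (0.74), neither of them called with mitochondrial mRNAs. Lgr4, an R-spondin receptor, was called lower in 9 comparisons and higher in 2. It fell in RPB2 (-2.72 ± 0.19) and RPB6 (-1.75 ± 0.14), and also in RPB8 (-1.31), RPB12 (-0.86) and RPB4 (-0.70). Of 13 tested ligands and secretion factors 12 rose in RPB1 and 1 fell, and 9 rose with mitochondrial mRNAs. The median in RPB1 was 4.31 with TMM (2.83 with genes at 0 counts placed at the floor). Of 21 listed, 13 passed the filter on low counts, which 2 libraries with higher counts are enough to pass. Wnt1 averaged 0.124 CPM and Wnt9b 0.191 CPM over the 12 h set. The filter can thus favour rises in lines where such genes are high, so these counts and medians are no result about the list. In RPB1 Wnt9a rose by 4.82 ± 0.29 and Wnt3a by 1.53 ± 0.42. In RPB5 6 ligand genes rose, and in RPB2 1. Porcn, the acyltransferase that loads Wnt ligands with lipid, was called higher in RPB2 (1.53 ± 0.14) and RPB6 (2.00 ± 0.15), and with mitochondrial mRNAs was -0.69 and 0.04. Over the 16 comparisons Porcn was called higher in 7 and lower in 4. The falls included WT, without a degron (-0.84), RPB4 (-1.46) and RPB12 (-1.25), of which only RPB12 was called with mitochondrial mRNAs. Of 19 nuclear partners 5 rose and 12 fell in RPB2 and 5 rose and 11 fell in RPB6. Bcl9l, a β-catenin co-activator, fell in both (-1.23 ± 0.29 and -1.66 ± 0.24) and rose in RPB1 (2.40 ± 0.16) and RPB5 (2.75 ± 0.16). Hdac1, a co-repressor subunit, was called higher in 11 comparisons, and in RPB2 (1.74 ± 0.07) and RPB6 (1.57 ± 0.07) it was -0.47 and -0.39 with mitochondrial mRNAs. Ctbp2, of the same list, was called lower in 12 comparisons and higher in 0, of which RPB3 turned to 0.60 with mitochondrial mRNAs. Smarca4 was called higher in 3 and lower in 7. Tcf7l1, the TCF factor that represses targets in stem cells, fell in RPB8 (-1.89 ± 0.13) and RPB1 (-1.37 ± 0.11).

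The genes most like each of 4 members in their mean log2 CPM over the 26 groups of the 12 h set were taken among genes averaging 5 CPM or more. These groups share lines and libraries, so the values are a description. For Axin2 they were Fzd10 (Pearson r 0.91), Zfp35 (0.90) and Fastkd3 (0.88). For Cdx1 they were Smyd2 (0.67), Clip3 (0.67) and Wdr4 (0.64), and for Cdx2 Atg14 (0.77), Nkx1-2 (0.73) and Gbx2 (0.73). For T they were Clip3 (0.77), Hnrnph1 (0.74) and Notumos (0.70). Among the members themselves Axin2 and Sp5 had an r of 0.78, whereas Axin2 had -0.03 with Notum and -0.01 with Cdx1.

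Before IAA the lines already differed from WT. Over 12 untreated lines and 10 genes there were 36 higher and 11 lower calls of 120. Of all genes tested, 8.57% (RPB9) to 26.9% (RPB7) were higher in a line and 7.15% (RPB9) to 26.8% (RPB7) lower. All 12 comparisons used the same 2 untreated WT libraries, so they are not independent. Untreated WT was also the baseline of the comparison that chose Axin2 and Cdx1, so their differences from untreated WT lean on the values that chose them and are a description. The 36 and 11 calls hold 8 higher calls of Axin2, and 2 higher and 4 lower of Cdx1, so these totals are partly a description too. Notum was higher in 11 of 12 lines, Sp5 in 10 and Axin2 in 8, and Tcf7 was lower in 5 lines with 0 higher. Cdx1 was lower in RPB3 (-1.20 ± 0.23), RPB9 (-1.37 ± 0.24), RPB10 (-0.60 ± 0.21) and RPB11 (-1.06 ± 0.23) and higher in RPB2 (0.56 ± 0.19) and RPB12 (0.94 ± 0.19). Of the Cdx1 calls, RPB10, RPB2 and RPB11 did not hold without 1 of their libraries: RPB10 without either of its own or WT replicate 1, RPB2 without WT replicate 2 or its own replicate 2, and RPB11 without its own replicate 1 (-0.61). The same untreated libraries are the baseline of each IAA comparison.

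In RPB12 8 of 10 members were called against WT (40.2% of all genes), 7 of them higher. Untreated RPB12 is also the baseline of the comparison that chose Cdx2, so the Cdx2 call, like those of Axin2 and Cdx1, is a description. The differences were 4.33 ± 0.51 for Lef1, 3.05 ± 0.18 for Notum, 1.54 ± 0.12 for Axin2 and 0.94 ± 0.19 for Cdx1. For 3 genes WT had 1 or 2 counts. Sp5 had 190 counts against 2 in WT, a ratio of 103 with a counting interval of 28.2 to 859. Cdx2 had 46 against 1 (ratio 50.03, interval 8.54 to 2018) and T 27 against 2 (ratio 14.7, interval 3.69 to 127). Nkd1 was lower (-1.19 ± 0.40), a call lost without WT replicate 1 or RPB12 replicate 2. Lef1 held 10.9 and 11.4 CPM there and at most 2.89 CPM in any other untreated library. In RPB4 6 of 10 were called (33.1% of all genes) and in RPB2 4 (40.8%), RPB3 4 (29.9%), RPB5 4 (17.9%), RPB8 4 (20.0%) and RPB9 4 (15.7%). In RPB1 3 of 10 were called (21.2%), as in RPB6 (24.5%) and RPB10 (31.8%), and 2 of 10 in RPB7 (53.7%) and RPB11 (22.8%). RPB7 was the line nearest WT in Notum (0.02 ± 0.24) and held 3 counts of Sp5, while its Tcf7 was lowest (51.4 and 46.5 CPM, -0.92 ± 0.11). Without WT replicate 1 the calls of Axin2 in RPB5 and RPB7, of Sp5 in RPB3, RPB9 and RPB10, of Tcf7 in RPB3, RPB5, RPB8 and RPB9, and of Lef1, Nkd1 and Cdx2 in RPB4 were lost. Without WT replicate 2 those of Notum in RPB8, Sp5 in RPB3, RPB9 and RPB10, Tcf7 in RPB9 and Cdx2 in RPB4 were lost.

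**Figure D4:**
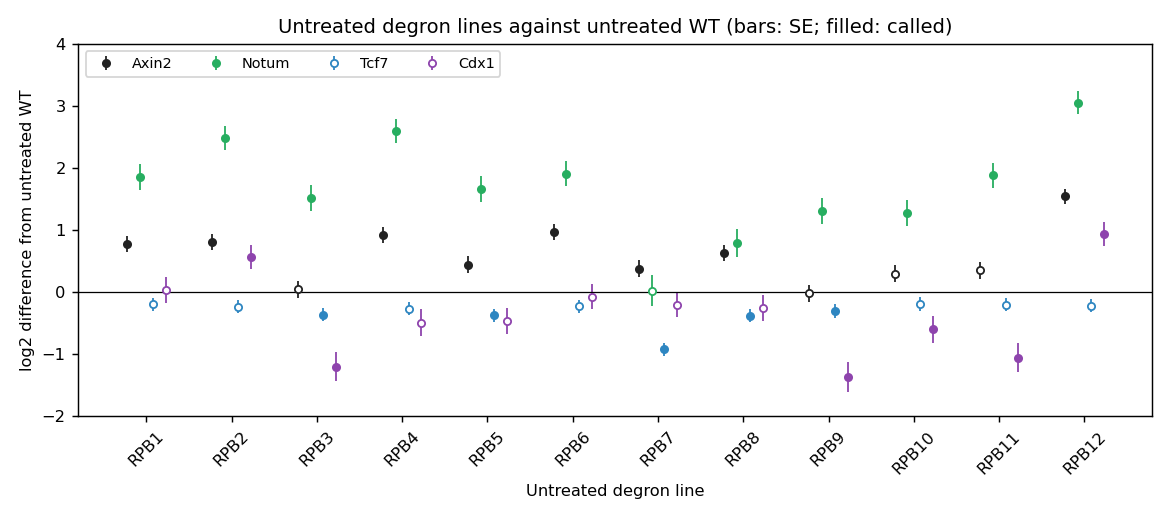
Log2 difference of 4 genes between each untreated degron line and untreated WT, with bars for the SE and filled points for calls (adjusted p under 0.05, edgeR), 2 libraries a group. Notum lies above 0 in all 12 lines, highest in RPB12 and nearest 0 in RPB7, and Tcf7 lies below 0 in all 12. Untreated WT was the baseline of the comparison that chose Axin2 and Cdx1, so their points, filled or not, are a description.

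At 1 h of IAA few members moved. In RPB1 2 of the 8 tested members were called, both higher, against 24.9% of all genes. Cdx1 went from 30.8 and 25.8 CPM at 0 h to 44.0 and 38.7 CPM at 1 h (0.55 ± 0.12, adjusted p = 0.00284, edgeR), not called without 1 h replicate 1. Tcf7 went from 83.0 and 83.1 CPM to 100 and 102 CPM (0.28 ± 0.08, adjusted p = 0.0184, edgeR), a call lost without any 1 of the 4 libraries. Tcf7 was thus higher at 1 h and, in the separate 12 h set, lower in the same line. In RPB3 0 of 8 were called by edgeR and 0 by DESeq2 (0.358% of all genes called by edgeR), and 0 had an unadjusted p under 0.05. In RPB6 0 of 8 were called by edgeR and 0 by DESeq2 (1.54% of all genes called by edgeR), and 1, Cdx1, had an unadjusted p under 0.05, at 23.9 and 27.8 CPM at 0 h and 33.4 and 35.8 CPM at 1 h (0.42 ± 0.12, adjusted p = 0.0838, edgeR). Axin2 in RPB6 held 26.7 and 27.3 CPM at 0 h and 28.4 and 26.3 CPM at 1 h (0.02 ± 0.11), whereas after 12 h it had fallen. Sp5 in RPB6 was 3.01 and 3.54 CPM at 0 h and 3.88 and 5.17 CPM at 1 h (0.45 ± 0.29, not called). The 2 sets were scaled apart and their library types may differ, so levels between them were not tested.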

How the data were processed

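RNA-seq of 64 libraries was analysed, 52 in the 12 h set and 12 in the 0 h and 1 h set. The authors deposited raw counts per gene, made after trimming and alignment to mm10 and dm6. The submitters' processing notes name featureCounts, STAR, Bowtie2, cutadapt 1.18, SAMtools, DESeq2 and deepTools, and the sources used here do not give the strand setting. The labels give a spike-in of 10% Drosophila S2 cells, which was not analysed here. A further 4 columns matched no sample and were not used. Of 55335 gene identifiers, 55154 were named from a table of gene identifiers and symbols, and 0 entries named no gene.

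The counts were fitted with edgeR 4.0.16 in R 4.3.3 (TMM, filterByExpr, quasi-likelihood F-test, two-sided, Benjamini-Hochberg over all genes tested). The sets were fitted apart, with 26 and 6 residual degrees of freedom, because the labels name poly(A) RNA for the 12 h samples only. Filtered genes held 99.8% of counts. The scripts were tested on simulated data. Fold changes have a standard error. A group at 0 counts was set to a floor of 3 counts over the group. Ratios with 1 to 3 counts in a group have exact 95% binomial intervals, which, like the floor, cover counting error only.

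The genes and the pathway lists were chosen with earlier results of these data known. All 10 genes are named. From each list some of the 4 genes called in the most of the 16 treatment comparisons are named. Others of these, such as Usp34, Tnks2, Dvl1, Sfrp1, Fzd5 and Wnt5b, are not described. Ctnnb1, Gsk3a, Gsk3b, Apc, Axin1 and Tcf7l1 are named besides, and Wnt1 and Wnt9b for their low levels. The 3 genes most like a member were taken by Pearson r of mean log2 CPM (prior count 2) among genes averaging at least 5 CPM. Alternatives were DESeq2 1.42.0, RLE factors, total counts, scaling to 13 mitochondrial mRNAs, no filter, the 4 libraries of a comparison alone, a replicate block, and leaving out each library.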

Additional observations from a re-analysis of the deposited data

Results flagged for a closer look

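In 7 of the 10 genes the response to 12 h of IAA in RPB2 and RPB6 differed from the response in RPB1, RPB5 and RPB8, by an edgeR contrast chosen after seeing the data and adjusted over all genes tested, of which 68.0% also passed. The mean log2 change was lower in RPB2 and RPB6 for Axin2 (by -2.96), Mixl1 (-2.20) and Cdx2 (-3.59), and Sp5 had an adjusted p of 1.73e-17 in the same direction. Tcf7 (0.89), Cdx1 (0.93) and Notum (0.76) were higher there with TMM, but none of these 3 passed with total counts or mitochondrial mRNAs. The Mixl1 difference was lost without RPB6 untreated replicate 2 and ran from -4.37 to -1.70 with 1 library left out.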

How the results depend on the processing

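Depth limited the low genes: T, Mixl1, Lef1, Cdx2 and Nkd1 rested on few counts, and most of their calls were lost without 1 library. Scaling mattered most. When libraries were scaled to mitochondrial mRNAs, the number of members called became 0 in WT, 3 in RPB1, 9 in RPB2, 2 in RPB5, 9 in RPB6, 0 in RPB7, 1 in RPB9, 2 in RPB10, 0 in RPB11, 1 in RPB12 and 1 in RPB1 at 1 h, and 31 in untreated lines against WT (47 with TMM). In RPB2 and RPB6 all 9 were then lower, but the median of all genes also lay well below 0 there, so this is no result about the members. The counts for WT and RPB12, here and below, come from the comparisons that chose the members, and they are a description that says nothing of stability. The counts for untreated lines against WT also include calls of Axin2 and Cdx1, chosen with untreated WT as baseline. With this scaling the sign turned for Notum in RPB2 (-1.38), RPB3 (0.16), RPB6 (-0.89) and RPB8 (-0.78), for Cdx1 in RPB2 (-1.37) and RPB6 (-1.17), for Tcf7 in RPB3 (0.17) and RPB6 (-1.94), for Lef1 in RPB6 (-1.48) and for Axin2 in RPB8 (-0.88). In the contrast of RPB2 and RPB6 with RPB1, RPB5 and RPB8 it turned for Notum (-0.45), Tcf7 (-0.33) and Cdx1 (-0.28). With total counts it turned for Notum (-0.026) and Cdx1 (-0.014) in RPB2, for Tcf7 in RPB6 (-0.60) and for Notum in that contrast (-0.017), and RPB11 had 1 call. The cause was not tested.

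With DESeq2 RPB1 had 4 calls. With the 4 libraries of a comparison alone there were 1 in RPB4, 3 in RPB5, 0 in RPB7, 5 in RPB9 and 0 in RPB11, and with no filter 1 in RPB6 at 1 h. With 1 library left out the calls ran from 1 to 3 in WT, 3 to 7 in RPB1, 4 to 5 in RPB2, 4 to 6 in RPB3, 3 to 6 in RPB5, 4 to 5 in RPB8, 2 to 3 in RPB9, 3 to 4 in RPB10, 1 to 3 in RPB11 and 3 to 4 in RPB12, with 0 in RPB4, 4 in RPB6 and 1 in RPB7 each time. They ran from 0 to 1 in RPB1 at 1 h, were 0 in RPB3 and RPB6 at 1 h, ran from 6 to 7 in the contrast between lines and from 34 to 48 in untreated lines against WT. A lone library left in a group was taken to vary like the other groups.

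Same-numbered libraries did not pair: their deviations from the group means correlated between -0.15 (RPB7) and 0.06. With a replicate block 1 call was lost, Lef1 in RPB3 (adjusted p = 0.0507, edgeR), and 283 other values kept their side of the threshold. Crossing the block in RPB7 also gave 1 call.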
